A study of Mus musculus with 24 samples.

Results

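The genes described are the subunits of the mitochondrial respiratory chain and ATP synthase, chosen by name: the 13 mitochondrially encoded protein genes (mt-Nd, mt-Co, mt-Atp and mt-Cytb) and the nuclear genes whose symbols begin with Nduf and a subunit letter, Sdh, Uqcr, Cox4 to Cox8 with a letter a to c, or Atp5, with names marked as pseudogenes left out. The rule found 98 of the 55416 rows of the gene table, 13 mitochondrially encoded and 85 nuclear encoded. All 13 mitochondrially encoded rows and 80 of the 85 nuclear rows held enough counts to be tested. Of the other 5, a second row named Atp5o and Cox8c held 0 counts in every library, and Cox8b, Cox6c2 and Cox7b2 reached at most 4, 5.33 and 9 counts. The rule misses a few subunits named otherwise, such as Cox4i1 and Ndufab1, which are given apart.

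Cerebellar RNA was sequenced from 24 neonatal C57BL/6J mice to ask how the first days of ethanol exposure alter gene expression, in a model of drinking late in human pregnancy. The 12 Ethanol pups received ethanol at 4 g/kg/day in intralipid by gavage from postnatal day 4 (P4), and the 12 Control pups received intralipid with water in place of ethanol. Tissue was taken a day after the last dose, at P5 or P6, from perfused pups, and poly(A) RNA was sequenced. GEO's labels name each animal's treatment and number, with no age, sex or litter, so both ages were compared together; each library came from its own animal, and the labels call the tissue brain.

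The respiratory chain passes electrons from NADH and succinate to oxygen through complexes I to IV and pumps protons across the inner mitochondrial membrane, and ATP synthase, complex V, uses that gradient to make ATP. Complexes I, III, IV and V are built from subunits of both genomes, whereas complex II is wholly nuclear encoded. The compact mitochondrial genome is transcribed as long precursors, which are cut, mostly at the transfer RNAs, into messenger RNAs that for the most part carry short poly(A) tails. Neurons of the growing cerebellum draw on this chain for synaptic and ionic work, while dividing granule neuron precursors also rely on glycolysis.

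The mitochondrial messages lie close together, and some share bases. These stretches are shown because reads within them cannot be assigned to a single gene, and because mt-Nd5 and mt-Nd6 are among the genes that the results turn on. In GENCODE M21 on GRCm38, mt-Nd1 lies at chrM:2751-3707, mt-Nd2 at chrM:3914-4951 and mt-Co1 at chrM:5328-6872 on the plus strand, while mt-Nd6 lies at chrM:13552-14070 on the minus strand. The end of mt-Atp8 and the start of mt-Atp6 share 43 bases at chrM:7927-7969, with the start codon of mt-Atp6 in capitals. The ends of mt-Nd5 and mt-Nd6 share 14 bases at chrM:13552-13565, printed on the plus strand, with the stop codons of mt-Nd6 (read on the other strand) and of mt-Nd5 in capitals.
mt-Atp8 and mt-Atp6: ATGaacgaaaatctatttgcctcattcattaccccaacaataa
mt-Nd5 and mt-Nd6: TTAatctcgagTAA
The first overlap is 21.1% of mt-Atp8 and 6.31% of mt-Atp6, and the second is 0.768% of mt-Nd5 and 2.70% of mt-Nd6. The strand setting of the counting is not given in the sources used here, and without strand, reads of mt-Nd6 cannot be told apart from antisense RNA of the opposite strand, so its values are uncertain in that respect. Nuclear copies of mitochondrial sequence and processed pseudogenes of short subunit genes may also share reads with members.

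Libraries held 26982564 to 38804942 estimated counts. The cerebellar cell types looked for, among them granule neuron precursors, granule neurons and Purkinje cells, had markers in all 24 libraries. In 4 libraries (X4568 and X4766 of Ethanol, X4761 and X4770 of Control) Ttr, the transthyretin gene of the choroid plexus, was at 1.15 to 3.57 CPM (counts relative to the scaled library total), against 322 to 5049 CPM elsewhere. Cell type markers moved with treatment, where 14.9% of all genes tested passed in either direction (9.07% higher and 5.80% lower in Ethanol). Of 8 markers each, 3 were lower for Purkinje cells, 5 lower and 1 higher for endothelial cells, 3 higher and 2 lower for astrocytes and Bergmann glia, 2 higher and 2 lower for microglia, and 2 higher and 1 lower for granule neuron precursors. Of 6 red blood cell markers 1 was lower, and none passed for choroid plexus, granule neurons or the oligodendrocyte lineage. Summed levels were 1539 to 1865 CPM in Control and 1422 to 1683 CPM in Ethanol for the Purkinje list, and 390 to 440 CPM in Control and 339 to 396 CPM in Ethanol for the endothelial list. They were 3771 to 4419 CPM and 4143 to 4669 CPM for the astrocyte list, 141 to 192 CPM and 142 to 225 CPM for microglia, and 1867 to 2183 CPM and 1761 to 2044 CPM for the precursors, with no marker at 0 throughout. Their part in the results was not tested, and in bulk tissue fewer cells of a type and less RNA per cell cannot be told apart.

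Library Ethanol X4673 stood apart in the nuclear encoded members. The median nuclear member lay 0.36 above its median over libraries on the log2 scale there, whereas the other 23 libraries ranged from -0.07 to 0.06. In 74 of the 80 nuclear members the level in X4673 was above that in every other library. The nuclear members took 1.09% of its counts and at most 0.939% of the counts of any other library. The cytosolic ribosomal protein genes (83 tested) were displaced in the same library, by 0.39 against -0.16 to 0.10 in the others, as was the shortest of 4 equal groups of genes by transcript length, by 0.16 against -0.03 to 0.03. The longest group was displaced downward, by -0.13 against -0.03 to 0.05. Of 77 nuclear members with an annotated transcript length, 69 belonged to the shortest group. The median mitochondrially encoded member of X4673 lay at -0.07, inside the range of the others (-0.15 to 0.16). Single genes of this set stood further off, in both directions. Against the median of the other libraries, mt-Nd5 lay at -0.65, mt-Nd4l at -0.55, mt-Co2 at 0.54 and mt-Nd3 at 0.55 on the log2 scale. Nuclear results are therefore given with and without this library, as are those of the mitochondrially encoded members that passed.

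**Figure D1:**
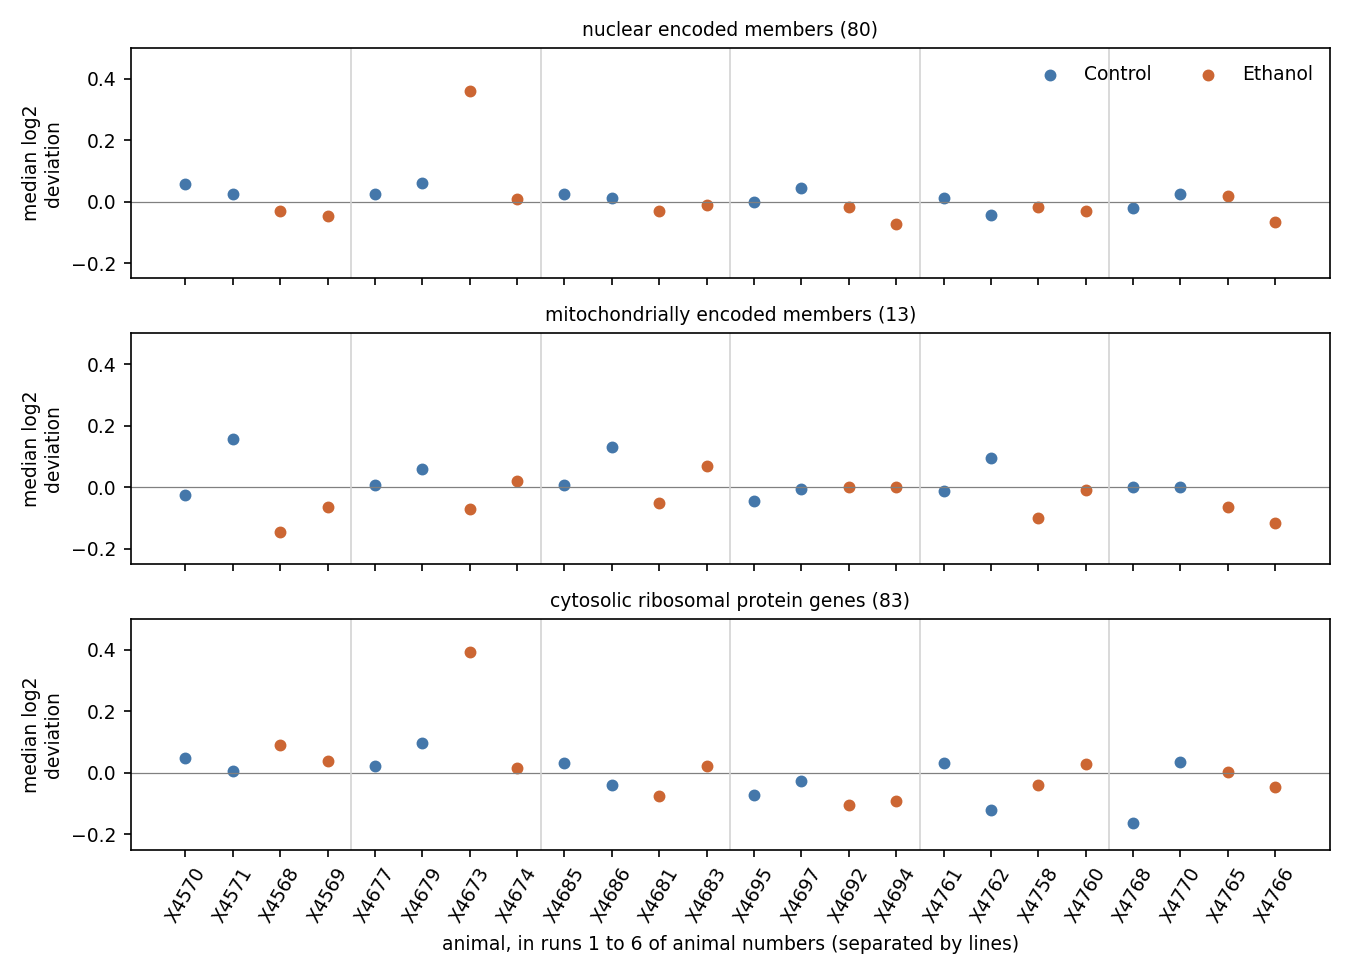
Median log2 deviation of 3 gene sets from each gene's median over the 24 libraries, by animal, with vertical lines between the 6 runs of animal numbers and with Control in blue and Ethanol in orange. Ethanol X4673 lies at 0.36 for nuclear members and 0.39 for cytosolic ribosomal protein genes, above all other animals, and inside their range for the median of the mitochondrially encoded members.

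Among the 13 mitochondrially encoded members, mt-Nd1, mt-Nd2 and mt-Nd6 were lower in Ethanol animals, with log2 fold changes of -0.12 to -0.16. Without X4673 they were -0.14 for mt-Nd1, -0.15 for mt-Nd2 and -0.15 for mt-Nd6 (edgeR adjusted p = 0.00188, 0.0116 and 0.00601). All 3 genes encode membrane subunits of complex I, the NADH dehydrogenase. No member was higher, and the other 10 did not pass the test. Over the 17736 genes tested, 5.80% were lower and 9.07% were higher in Ethanol at an adjusted p under 0.05 (edgeR quasi-likelihood test with Benjamini-Hochberg adjustment). The median log2 fold change of the mitochondrially encoded members was -0.04, and that of all genes tested was -0.0057.

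mt-Nd1, which encodes a core subunit beside the ubiquinone site, ran from 3044 CPM through a median of 3367 to 3660 CPM in Control and from 2875 through 3014 to 3407 CPM in Ethanol. The groups overlapped, but 11 of 12 Ethanol animals were below the Control median. Its log2 fold change was -0.14 (SE 0.03, 95% interval -0.20 to -0.08, edgeR adjusted p = 0.00221), so that the level fell by 9.26%. mt-Nd2, which encodes a proton-pumping subunit, ran from 1780 through 1922 to 2143 CPM in Control and from 1548 through 1704 to 1966 CPM in Ethanol. The groups overlapped here too, with 10 of 12 Ethanol animals below the Control median. The log2 fold change of mt-Nd2 was -0.16 (SE 0.04, 95% interval -0.24 to -0.07, edgeR adjusted p = 0.0107).

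mt-Nd6, the single protein gene of the light strand, ran from 747 CPM through a median of 786 to 886 CPM in Control and from 630 through 715 to 851 CPM in Ethanol. Ethanol animals spread more widely than Control animals, and 9 of 12 were below the Control median. Its log2 fold change was -0.12 (SE 0.04, edgeR adjusted p = 0.0431), near the threshold, and it no longer passed without the 4 libraries low in Ttr (-0.09, adjusted p = 0.162) or when any 1 of 7 animals was left out (Control X4571, X4679, X4686 or X4697, Ethanol X4758, X4765 or X4766; adjusted p up to 0.0876). mt-Nd5, which encodes the pump at the far end of the membrane arm, ran from 2425 through 2590 to 2949 CPM in Control and from 1631 through 2467 to 2614 CPM in Ethanol. Of its Ethanol animals, 11 of 12 were below the Control median, and the lowest of them was X4673. The log2 fold change of mt-Nd5 was -0.15 (SE 0.05, edgeR adjusted p = 0.0525) over all animals, and it was -0.11 and passed (SE 0.03, adjusted p = 0.0140) without X4673. With the runs of animal numbers described below as a block, it also passed over all animals (-0.15, adjusted p = 0.0422).

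**Figure D2:**
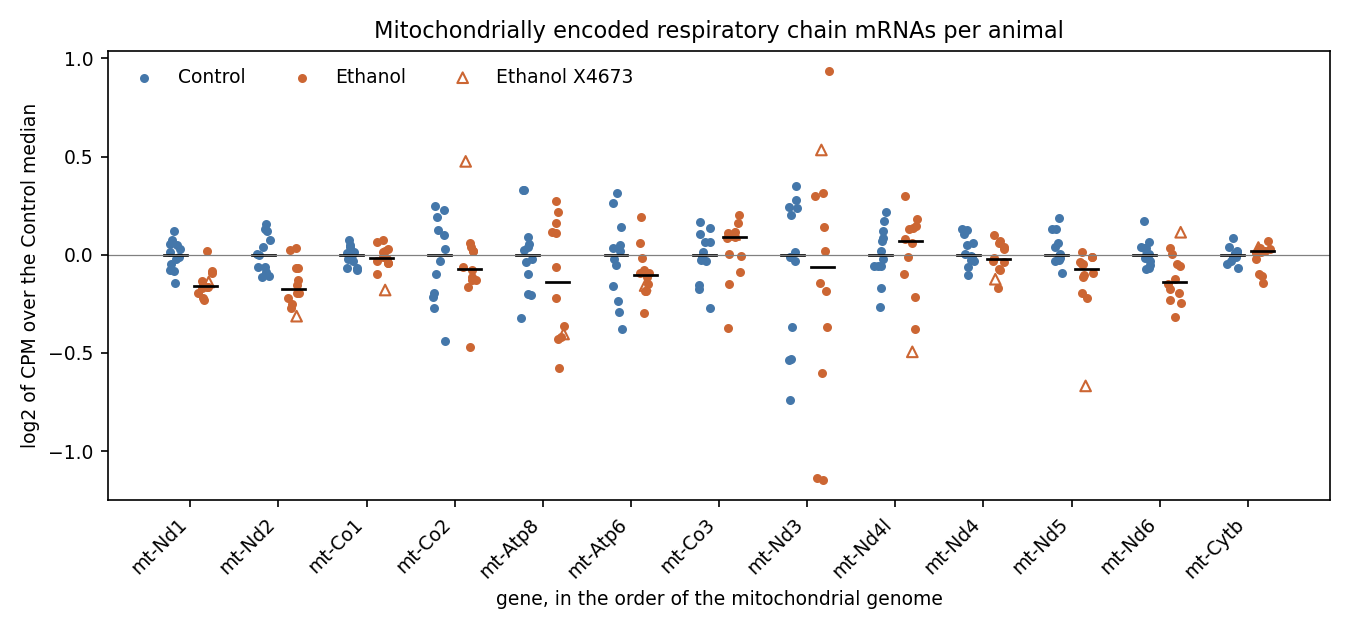
Level of each mitochondrially encoded member per animal, as the log2 of CPM over the Control median, in the order of the genes on the mitochondrial genome, with 12 Control animals in blue, 12 Ethanol animals in orange (the open triangle is X4673) and group medians as black bars. The Ethanol medians of mt-Nd1, mt-Nd2 and mt-Nd6 lie below every Control point, those of mt-Co1 and mt-Cytb lie near 0, and mt-Nd3 scatters most.

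None of the messages of complexes III and IV passed, and mt-Co1 and mt-Cytb differed little between groups. mt-Co1, the catalytic subunit of cytochrome c oxidase and the most abundant member, ran from 10236 CPM through 10790 to 11383 CPM in Control and from 9528 through 10658 to 11352 CPM in Ethanol. The 2 ranges lay almost on top of each other, and the log2 fold change was -0.01 (95% interval -0.06 to 0.04, edgeR adjusted p = 0.812). mt-Cytb, the cytochrome b of complex III, was as steady, at 4239 to 4705 CPM in Control and 4024 to 4668 CPM in Ethanol (-0.01, 95% interval -0.06 to 0.04, adjusted p = 0.840). mt-Co2 (-0.02, adjusted p = 0.925) and mt-Co3 (0.03, adjusted p = 0.747) varied more between animals. Without X4673 the 95% interval of mt-Co2 ran from -0.23 to 0.08, which includes the -0.14 of mt-Nd1.

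The remaining complex I messages and those of ATP synthase also did not pass. mt-Nd4, a further pump subunit, stood at 2919 to 3435 CPM in Control and 2789 to 3361 CPM in Ethanol (log2 fold change -0.04, 95% interval -0.10 to 0.03, adjusted p = 0.472). The other 4 were less precise than mt-Nd4: the interval of mt-Nd3 ran from -0.38 to 0.46, that of mt-Nd4l from -0.16 to 0.15, that of mt-Atp8 from -0.32 to 0.09 and that of mt-Atp6 from -0.21 to 0.06. mt-Nd3, the weakest member at 20.5 to 43.6 CPM in Control, had a coefficient of variation of 24.02% among Control animals, against 2.75% for mt-Cytb. A difference of the size seen in mt-Nd1 was therefore not detectable in these 4 genes with 12 animals a group.

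Per kilobase of gene, mean Control levels ran from 96.1 CPM for mt-Nd3 to 6959 CPM for mt-Co1. The 3 genes that were lower did not stand at one end of that order. mt-Nd1 was at 3513, mt-Nd2 at 1865 and mt-Nd6 at 1525 CPM per kilobase, whereas mt-Cytb was at 3882 and mt-Nd4 at 2309 CPM per kilobase. On the genome mt-Nd1 and mt-Nd2 are neighbours just after the ribosomal RNA genes, and mt-Nd6, on the minus strand, lies between mt-Nd5 and mt-Cytb. The ribosomal RNA genes just before mt-Nd1, which are not members and were looked at after their values were seen, were mt-Rnr2 with a log2 fold change of -0.26 (SE 0.06, edgeR adjusted p = 0.00610) and mt-Rnr1 with one of 0.12 (SE 0.04, adjusted p = 0.0787). Ribosomal RNA reaches a poly(A) library only in part, so these 2 values describe polyadenylated copies.

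Relative to mt-Co1 in the same animals, the log2 difference between groups was -0.13 (SE 0.03) for mt-Nd1, -0.14 (SE 0.04) for mt-Nd2, -0.10 (SE 0.05) for mt-Nd6 and -0.14 (SE 0.04) for mt-Nd5, and 0.00399 (SE 0.03) for mt-Cytb. These values are a description, since both the genes and the scale were chosen after the pattern was seen.

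Taken in order of their numbers, the animals were grouped into 6 runs of 4, each with 2 Ethanol and 2 Control animals. The labels do not mark these runs. By the methods, 6 litters each gave 2 pups per treatment, a layout with the same numbers as the runs, but the litter of a given animal is not stated in the labels or methods. mt-Nd1 was lower in Ethanol in all 6 runs, by log2 differences of -0.05 in run 4 to -0.20 in run 1. mt-Nd5 was lower in 6 runs, though only by -0.0068 in run 4. mt-Nd2 was lower in 5 runs, by -0.13 to -0.25, and stood at 0.02 in run 4, and mt-Nd6 was lower in 4 runs, by -0.10 to -0.26. mt-Co1 was lower in 3 runs and higher in 3, and mt-Cytb was lower in 2 and higher in 4. mt-Nd1, mt-Nd2, mt-Nd5 and mt-Nd6 had been found lower in these same animals. Their agreement over the runs is therefore partly built in and is a description only.

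**Figure D3:**
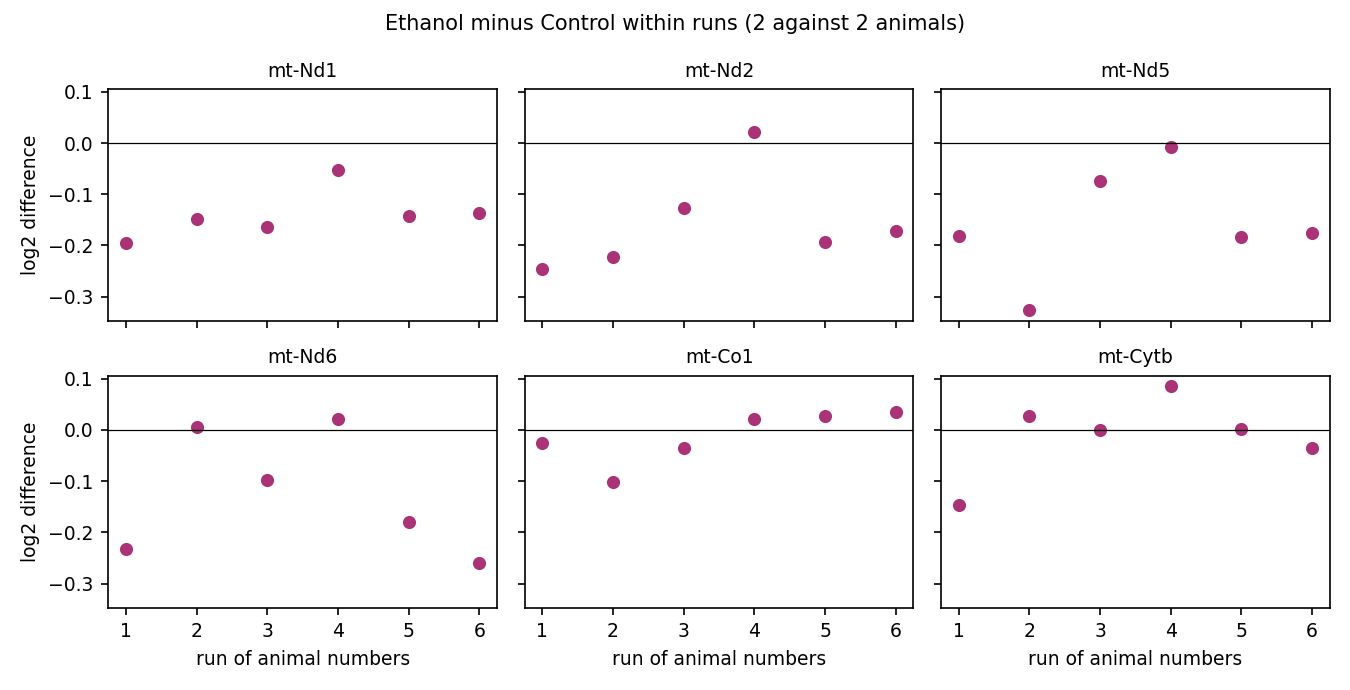
Difference of mean log2 CPM, Ethanol minus Control, for 6 mitochondrially encoded members in each run of animal numbers (2 against 2 animals per point), with the horizontal line at no difference. All points of mt-Nd1 and mt-Nd5 lie below the line, mt-Nd2 lies above it in run 4 alone, and the points of mt-Co1 lie 3 on each side.

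As a share of each library's counts, the 13 mitochondrially encoded members took 3.03% to 3.41% in Control animals (median 3.13%, mean 3.18% ± 0.136, SD, n = 12). In Ethanol animals they took 2.84% to 3.25% (median 3.08%, mean 3.07% ± 0.127, SD, n = 12). The groups overlapped over most of their range, and the Ethanol mean was below the Control mean in 5 of 6 runs. The difference of the means, -0.111 percentage points, was smaller than the SD within either group. The lowest Ethanol share was that of X4673.

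Over all 24 animals the nuclear encoded members showed almost no difference: 1 of 80 was lower in Ethanol, none was higher, and the median log2 fold change was -0.01, where 5.80% of all genes tested were lower and 9.07% higher. At an unadjusted p under 0.05, 3 of the 80 passed, where 5041 of all 17736 genes did. limma-trend, limma-voom and DESeq2 called 1, 1 and 2 of the 80 lower. Over the 11 alternatives examined, 612 to 1396 of all genes were lower. The 95% interval lay within 0.2 of no change on the log2 scale for 76 of the 80, where it did for 51.0% of all genes tested. The 4 with wider intervals were Ndufa4l2, Cox6b2, Cox6a2 and Cox7a1, which had the lowest levels. The count within 0.2 describes precision and cannot tell no change from a smaller shift. It was also 76 of 80 without X4673, where 19 members were lower. By complex, 1 of 38 subunits of complex I, 0 of 4 of complex II, 0 of 8 of complex III, 0 of 13 of complex IV and 0 of 17 of complex V were lower.

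The nuclear member that passed was Ndufs1, the largest iron-sulphur subunit of complex I. It ran from 125 CPM through 130 to 142 CPM in Control and from 117 through 122 to 129 CPM in Ethanol, with all 12 Ethanol animals below the Control median although the ranges overlapped. The log2 fold change was -0.08 (SE 0.02, 95% interval -0.12 to -0.03, edgeR adjusted p = 0.0229). The mean was lower in 5 of 6 runs, which is partly built in, since Ndufs1 was picked as lower in these same animals. Ndufs1 no longer passed without the 4 libraries low in Ttr (-0.06, adjusted p = 0.149) or without Ethanol X4765 (-0.07, adjusted p = 0.0547).

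Without X4673, with 11 Ethanol against 12 Control animals, 19 of the 80 nuclear members were lower and none was higher. That is 23.8% of them, where 8.09% of all 17773 genes tested were lower and 9.76% were higher. Of the 80 log2 fold changes 75 were below 0, against 9796 of 17773 over all genes. The median nuclear member moved from -0.01 to -0.05, and that of the cytosolic ribosomal protein genes moved by about as much, from 0.04 to -0.0050, with 0 of 83 of them lower either way. The median of all genes was -0.01 without X4673. Leaving out each animal in turn was planned, but the weight given here to this animal followed from seeing its values. The other 23 such repeats gave 0 to 2 nuclear members lower.

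The 19 members belong to 4 of the 5 complexes, with 8 of 38 in complex I, 2 of 8 in complex III, 2 of 13 in complex IV, 7 of 17 in complex V and 0 of 4 in complex II. Their levels fell by 3.66% in Ndufa4 to 9.02% in Ndufa12, and 15 of the 19 were lower in all 6 runs, of which run 2 then held 1 Ethanol animal. The 19 were picked as lower in these same animals, so their agreement over the runs is partly built in and is a description only. The complex I members were Ndufa12, Ndufb8, Ndufs1, Ndufb7, Ndufv2, Ndufa4, Ndufb9 and Ndufs4; of these, Ndufs1 and Ndufv2 hold iron-sulphur clusters of the electron path, and Ndufa4 is now counted with complex IV. The complex III members were Uqcrfs1, the Rieske iron-sulphur protein, and the core protein Uqcrc1, and the complex IV members were Cox7b and Cox5a. The complex V members were Atp5a1, Atp5b and Atp5c1 (the alpha, beta and gamma subunits of the catalytic head), Atp5h, Atp5pb and Atp5l of the stalk and membrane part, and Atp5g3 of the proton-conducting ring.

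**Figure D4:**
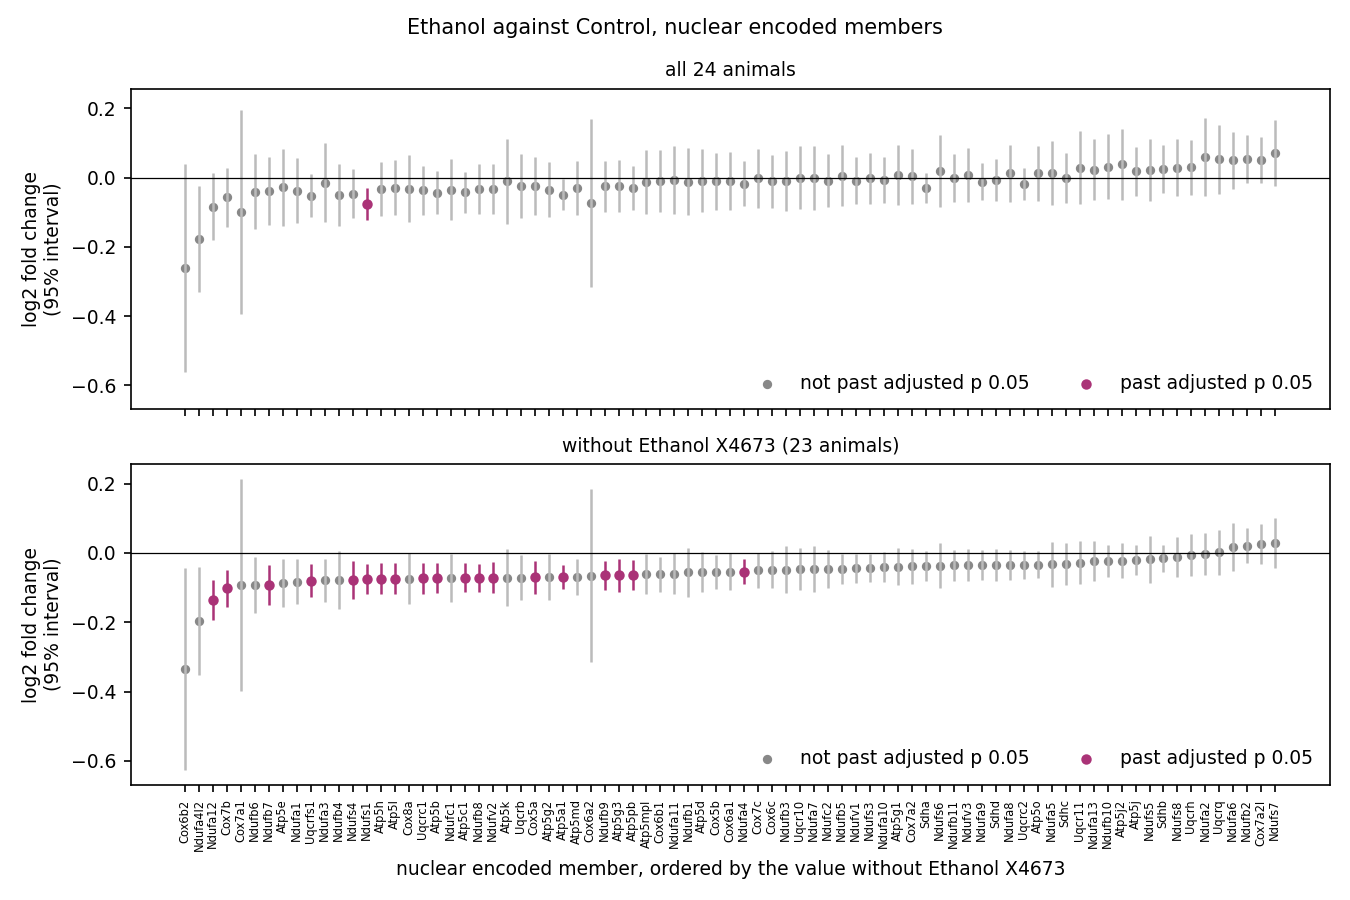
Log2 fold change of Ethanol against Control with its 95% interval for 79 of the 80 nuclear encoded members, over all 24 animals (top) and without Ethanol X4673 (bottom), both ordered by the lower panel, with members past an adjusted p of 0.05 in purple. Purple marks 1 member in the upper panel and 19 in the lower, where nearly all points lie below 0.

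Ndufa12, an accessory subunit of complex I, showed how far 1 animal set these values. It ran from 59.9 CPM through 67.2 to 69.9 CPM in Control and from 55.9 through 61.6 to 64.0 CPM in the 11 other Ethanol animals, while X4673 stood at 84.9 CPM. The log2 fold change was -0.14 (SE 0.03, 95% interval -0.19 to -0.08, edgeR adjusted p = 0.00174) without X4673 and -0.08 (SE 0.05, adjusted p = 0.248) with it. In both versions 11 Ethanol animals were below the Control median.

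Cox7b, a small subunit of cytochrome c oxidase, ran from 77.1 CPM through 83.7 to 90.9 CPM in Control and from 70.8 through 77.7 to 81.6 CPM in Ethanol without X4673, which itself stood at 104 CPM. Its log2 fold change went from -0.06 (adjusted p = 0.379) to -0.10 (SE 0.03, adjusted p = 0.00807). Atp5a1, the alpha subunit of ATP synthase, was the steadiest nuclear member in Control, with a coefficient of variation of 1.60%. It ran from 929 through 969 to 992 CPM in Control and from 888 through 922 to 942 CPM in Ethanol without X4673, with a narrow overlap of the ranges and all 11 Ethanol animals below the Control median. Its log2 fold change was -0.05 (adjusted p = 0.128) with X4673 and -0.07 (SE 0.02, adjusted p = 0.00598) without it.

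Further members called without X4673 had smaller changes. Atp5b, the catalytic beta subunit and the most abundant nuclear member at 1069 CPM in Control on average, had a log2 fold change of -0.04 (edgeR adjusted p = 0.364) with X4673 and of -0.07 (adjusted p = 0.0202) without it. Uqcrfs1 had one of -0.05 (adjusted p = 0.264) and of -0.08 (adjusted p = 0.0172). Complex II did not pass either way: Sdha, its flavoprotein, had -0.03 (adjusted p = 0.354) with and -0.04 (adjusted p = 0.225) without X4673, and the 4 subunits lay between -0.04 and -0.01 without it. Abundant subunits of other complexes also did not pass without X4673, among them Uqcrc2 (-0.03, adjusted p = 0.242) and Cox6b1 (-0.06, adjusted p = 0.0783).

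Among the few members on the other side of 0, Cox7a2l had a log2 fold change of 0.05 (edgeR adjusted p = 0.325) with and 0.03 (adjusted p = 0.588) without X4673. Ndufs7, an iron-sulphur subunit of complex I, had the highest value of all nuclear members, 0.07 with and 0.03 without X4673, and did not pass (adjusted p = 0.342 and 0.632).

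Members with restricted expression were low in the cerebellum and did not pass. Ndufa4l2, a relative of Ndufa4 that is known to respond to low oxygen, ran from 3.60 CPM through 4.36 to 4.95 CPM in Control and from 3.02 through 3.98 to 4.73 CPM in Ethanol. It was lower in all 6 runs, but its log2 fold change of -0.18 did not pass (SE 0.07, edgeR adjusted p = 0.108). Cox6b2, known from testis, ran from 2.12 through 4.39 to 5.20 CPM in Control and from 2.24 through 2.97 to 5.05 CPM in Ethanol (-0.26, SE 0.15, adjusted p = 0.247). The muscle forms Cox6a2 and Cox7a1 stayed under 1.21 CPM in every library, with wide intervals (-0.32 to 0.17 and -0.39 to 0.20).

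How far the 19 members depend on other choices was examined with X4673 left out throughout. The number lower was 19 with limma-trend, limma-voom, the stricter filter (1 CPM in 12 libraries), a block of runs or a scaling that leaves out the mitochondrial rows. In these settings 8.09% to 9.50% of all genes were lower. It was 18 with DESeq2, 15 with RLE factors and 24 with upper-quartile factors. It dropped to 2 without the filter on low counts, where 2.34% of all genes were lower, and to 2 when the 4 libraries low in Ttr were left out as well, where 4.23% were. Leaving out the rest of run 2 gave 10, where 5.16% of all genes were lower. Leaving out 1 further animal gave 9 (Ethanol X4760) to 22 (Control X4768), where 6.19% and 8.81% of all genes were lower. The median over the 80 members stayed between -0.06 and -0.04 in all these settings. mt-Nd1, mt-Nd2, mt-Nd5 and mt-Nd6 were lower in each of them, except that mt-Nd5 did not pass without the filter or without the 4 libraries low in Ttr.

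Subunits that the naming rule leaves out did not pass over all animals (0 of 6). Cox4i1, a regulatory subunit of cytochrome c oxidase, had a log2 fold change of 0.02 (edgeR adjusted p = 0.776) with and -0.02 (adjusted p = 0.387) without X4673. Ndufab1, the acyl carrier protein of complex I, had 0.08 (adjusted p = 0.115) and 0.05 (adjusted p = 0.181), and Dmac2l, a coupling factor of ATP synthase, had -0.12 (adjusted p = 0.0887) and passed without X4673 (-0.15, adjusted p = 0.0291).

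NRF1 and ETS factors such as GABP are known to act on respiratory chain promoters, and the promoters of nuclear members were searched for their motifs. The windows of Atp5h and Atp5c1 are shown because these are the members lower without X4673 that hold an NRF1 match. Of the 80 members, 67 matched a promoter entry of RefSeq (GRCm38.p6), here the 250 bases before the start. The NRF1 motif, GCGCA and GCGC with any 1 base between them, on either strand, was in 19.4% of the 72 member windows and in 3.74% of all 32851 windows. The ETS motif CCGGAAG, on either strand, was in 16.7% of the member windows and in 6.91% of all windows. The YY1 motif, AAGATG followed directly by GCGG, on either strand, was in 1.39% of the member windows and in 0.301% of all windows. The NRF1 and ETS matches share no bases in the windows printed here.
Atp5h, chr11:115419920-115420169, minus strand: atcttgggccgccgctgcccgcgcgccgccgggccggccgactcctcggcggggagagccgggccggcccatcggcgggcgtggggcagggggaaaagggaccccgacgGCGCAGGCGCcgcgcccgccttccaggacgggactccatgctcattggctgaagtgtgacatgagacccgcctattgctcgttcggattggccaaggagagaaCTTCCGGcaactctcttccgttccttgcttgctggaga
Atp5c1, chr2:10080433-10080682, minus strand: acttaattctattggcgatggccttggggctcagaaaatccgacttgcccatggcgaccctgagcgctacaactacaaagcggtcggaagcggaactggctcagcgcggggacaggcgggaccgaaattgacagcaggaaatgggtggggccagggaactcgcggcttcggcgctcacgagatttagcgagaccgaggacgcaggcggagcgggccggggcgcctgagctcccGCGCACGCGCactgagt
Capitals mark an NRF1 match in both and an ETS match near the end of Atp5h, read on the opposite strand. Among the members lower without X4673, 2 of the 16 with an entry held the NRF1 motif, 3 the ETS motif and 0 the YY1 motif, and among the other 51 members 11, 9 and 1 did. A match is a description of the letters and says nothing of binding in these animals.

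Counts in the lists of related genes were small and are read against the 9.07% of all genes that were higher and the 5.80% that were lower. Those without X4673 are read against 9.76% higher and 8.09% lower. Of 13 regulators of respiratory chain genes, 2 were higher in Ethanol and none was lower, and the median log2 fold change was 0.08. Pprc1, a coactivator of NRF1 induced in growing cells, ran from 41.8 CPM through 46.2 to 55.4 CPM in Control and from 48.6 through 56.0 to 61.6 CPM in Ethanol. All 12 Ethanol animals were above the Control median (log2 fold change 0.24, SE 0.04, edgeR adjusted p = 0.000643), and the same held for Yy1, a transcription factor with many target genes (0.14, SE 0.03, adjusted p = 0.000454). Creb1 (0.09, adjusted p = 0.0297) and Gabpa (0.11, adjusted p = 0.00739) passed without X4673 only, and Ppargc1a (0.01, adjusted p = 0.919), Nrf1 (0.05, adjusted p = 0.315) and Esrra (0.11, adjusted p = 0.173) did not pass over all animals.

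Of 20 genes of mitochondrial DNA replication and transcription, 3 were higher and none was lower. Twnk, the mitochondrial DNA helicase, ran from 29.3 CPM through 30.8 to 33.1 CPM in Control and from 31.4 through 36.9 to 39.3 CPM in Ethanol, so that the ranges overlapped little. Its log2 fold change was 0.22 (SE 0.04, edgeR adjusted p = 0.000168), and Mgme1, an exonuclease of replication (0.15, adjusted p = 0.0192), and Mterf3 (0.10, adjusted p = 0.0399) also passed. Mterf3 passed in 7 of 24 repeats with 1 animal left out, and not without X4673 (adjusted p = 0.0614). Tfam, which packs and transcribes the mitochondrial genome, had 0.03 (adjusted p = 0.355) and the RNA polymerase Polrmt 0.05 (adjusted p = 0.381).

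Of 20 genes of mitochondrial RNA processing and stability, 3 members of the FASTK family were higher and none was lower. Fastkd5, which is needed to process precursors that lack a transfer RNA at the cut, ran from 7.51 CPM through 9.42 to 9.97 CPM in Control and from 10.2 through 11.9 to 14.3 CPM in Ethanol. The groups did not overlap, and the log2 fold change was 0.38 (SE 0.06, edgeR adjusted p = 8.62e-05). Fastkd3 had 0.15 (adjusted p = 0.0386) and Fastkd1 0.09 (adjusted p = 0.0479). With 1 animal left out, Fastkd5 passed in all 24 repeats, Fastkd3 in 11 and Fastkd1 in 8. Lrpprc, which stabilises most mitochondrial messages, had -0.0086 (adjusted p = 0.856) and its partner Slirp 0.02 (adjusted p = 0.853).

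Assembly factors moved in both directions. Of 15 tested for complex I, Nubpl, which delivers iron-sulphur clusters, was lower in Ethanol. It ran from 5.99 CPM through 7.08 to 8.05 CPM in Control and from 4.68 through 6.0 to 7.06 CPM in Ethanol, with all 12 Ethanol animals below the Control median (log2 fold change -0.25, SE 0.07, edgeR adjusted p = 0.00970). Foxred1 was also lower (-0.08, adjusted p = 0.0185) and Tmem186 was higher (0.12, adjusted p = 0.0173). Of 31 factors for complexes II to V, 2 were higher, the copper chaperone Cox17 (0.24, SE 0.06, adjusted p = 0.00474) and Coa6 (0.20, adjusted p = 0.0441). Coa6 passed in 5 of 24 repeats with 1 animal left out, and not without X4673 (adjusted p = 0.0771). In that comparison Cox17 was still higher (0.20, adjusted p = 0.00682), and Atpaf2 (-0.14, adjusted p = 0.0173), Sdhaf4 (-0.17, adjusted p = 0.0423) and Cox16 (-0.11, adjusted p = 0.0492) were lower, as was Ndufaf1 of the complex I factors (-0.09, adjusted p = 0.0492).

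Of 78 genes of the mitochondrial ribosome, which translates the 13 messages, 2 were higher and 1 was lower over all animals, and 0 were higher and 6 lower without X4673. Coenzyme Q synthesis had 3 of 13 genes higher, Coq10b (0.20, adjusted p = 0.00293), Pdss1 (0.15, adjusted p = 0.0114) and Coq5 (0.13, adjusted p = 0.0129), and Coq7 was lower without X4673 (-0.14, adjusted p = 0.00464). None of 18 genes of the tricarboxylic acid cycle passed over all animals. In glycolysis 1 of 20 passed, Aldoc, the brain aldolase of astrocytes and Purkinje cells, which rose by 0.39 on the log2 scale (SE 0.08, adjusted p = 0.00299). Without X4673, 3 glycolytic genes were also lower, Gapdh (-0.09, adjusted p = 0.00621), Pkm (-0.08, adjusted p = 0.0103) and Eno1 (-0.09, adjusted p = 0.0152), and Aldoc was still higher (0.39, adjusted p = 0.00426). Of 12 genes of peroxide and superoxide defence 1 was lower, the catalase gene Cat (-0.08, adjusted p = 0.0332), joined by Prdx3 without X4673 (-0.10, adjusted p = 0.0260), and 0 of 14 genes of fusion, fission and mitophagy passed over all animals, while without X4673 Mff was lower (-0.07, adjusted p = 0.0216) and Mief1 higher (0.10, adjusted p = 0.0281). Of 15 chaperones and proteases 2 were higher, the matrix chaperone Hspa9 (0.07, adjusted p = 0.0474, and 0.0546 without X4673) and Atf5, a factor of the mitochondrial stress response, at 0.68 (SE 0.15, adjusted p = 0.00284). Hspa9 passed in 6 of 24 repeats with 1 animal left out. Of 22 import genes Timm17a alone was higher (0.15, adjusted p = 0.0450), which passed in 11 of those 24 repeats and not without X4673 (adjusted p = 0.0730), where Timm23 was lower (-0.09, adjusted p = 0.0286).

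**Figure D5:**
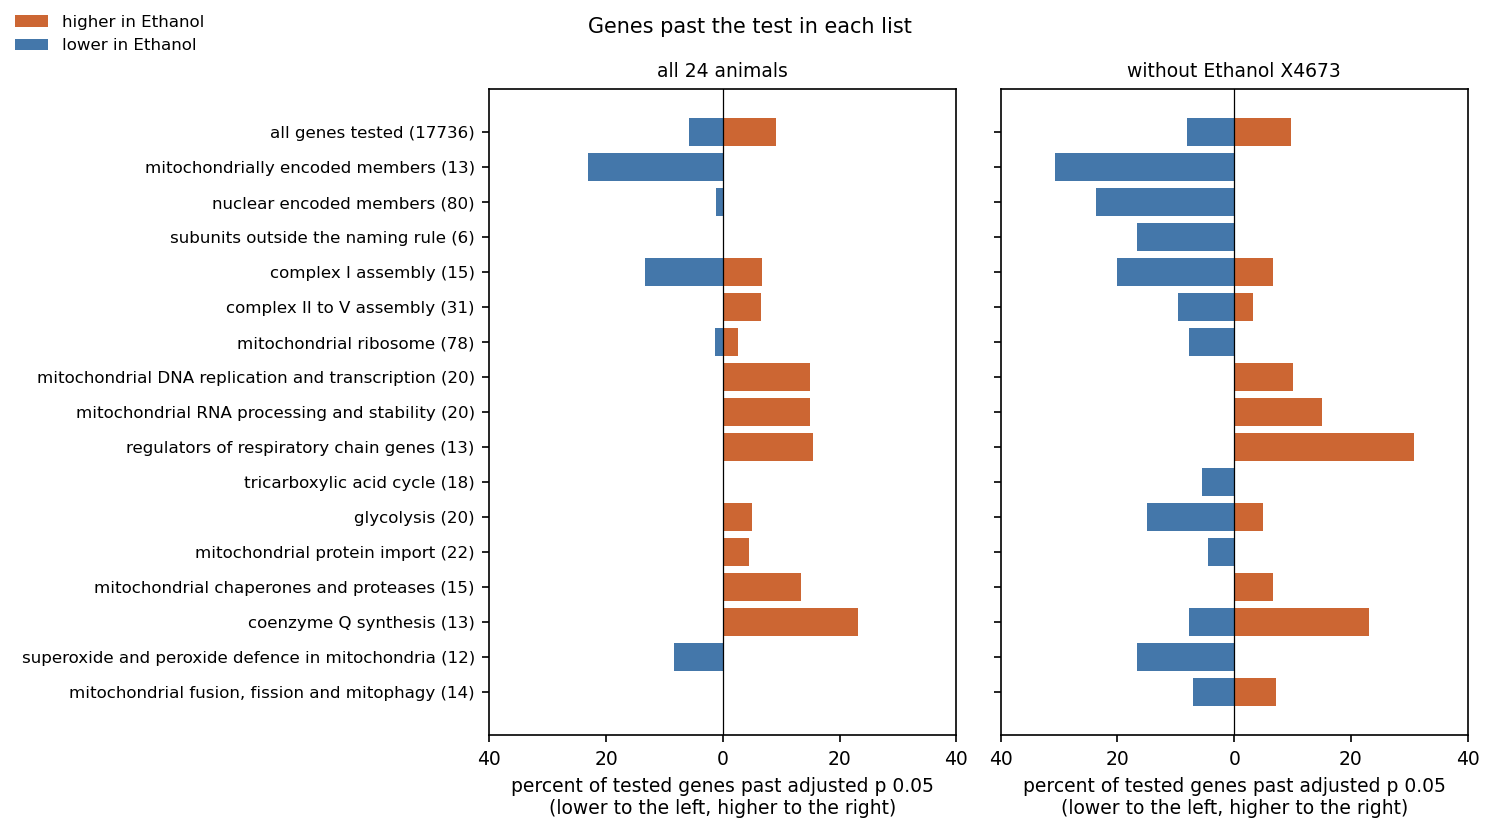
Percent of tested genes past an adjusted p of 0.05 in each list, lower in Ethanol to the left in blue and higher to the right in orange, over all 24 animals (left) and without Ethanol X4673 (right), with the number of genes tested over all animals in parentheses. In both panels blue bars alone stand for both member sets and for superoxide and peroxide defence. Nuclear members are at 1 of 80 on the left and 19 of 80 on the right. Orange bars alone stand in both panels for the regulators, mitochondrial DNA and RNA genes, and chaperones and proteases. Several other lists have bars of a single colour in 1 panel only.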

How the data were processed

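Poly(A) RNA of 24 mouse cerebella (12 Ethanol, 12 Control, grouped by label) was sequenced. The authors deposited estimated counts for each gene from nf-core/rnaseq 3.4. STAR, Salmon, limma and the GRCm39 build are listed in the submitters' processing notes, which give no version; annotation release and strand setting are not stated in any source used. Of the values, 10.9% were further than 0.01 from a whole number, and counts were rounded.

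Genes were filtered with filterByExpr, scaled by TMM, with factors of 0.982 to 1.01, and fitted by the robust quasi-likelihood method of edgeR 4.0.16 (R 4.3.3; 22 residual degrees of freedom), with Benjamini-Hochberg adjustment over all 17736 genes and a threshold of 0.05. The script was tested on simulated data first. A further description used mt-Co1 as the scale. CPM are counts relative to the TMM-scaled library total. Over all pairs of libraries the lowest mean chi-square per gene was 4.95, above the 1 of sampling noise. P-values measure the spread between these animals. Lists give counts and medians, with no test of a list.

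The members and lists were chosen with earlier results of these data known. Genes named were the 13 mitochondrially encoded members, the nuclear members past the test, the 3 of smallest p and the 2 of highest expression in each complex, members of restricted expression, and the 3 of smallest p in each list; members and list genes past the test without X4673, and further list genes known for their role (Tfam, Polrmt, Nrf1, Ppargc1a, Esrra, Gabpa, Lrpprc, Slirp, Cox4i1), were added after their values were seen. Alternatives were limma-trend and limma-voom (limma 3.58.1), DESeq2 1.42.0, other scalings and filters, a block, a covariate and left-out libraries. Sequences came from GENCODE M21 and RefSeq (GRCm38), whose build differs from that of the counts, and genes were matched by symbol. The values of 1 nuclear member and of 1 list gene are not reported here by name, although both are counted. Plots used matplotlib 3.10.9 in Python 3.11.15.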

Additional observations from a re-analysis of the deposited data

How the results depend on the processing

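Over 11 alternatives for the test, scaling, filter, block, covariate and libraries, and over the 24 repeats that left out 1 animal, no result that passed changed sign. Uncalled values of mt-Co2 (-0.08 to 0.02), mt-Nd3 (-0.08 to 0.12), mt-Nd4l (-0.04 to 0.04) and mt-Cytb (-0.02 to 0.02) did. Mitochondrially encoded members lower in Ethanol numbered 2 to 4 with 1 animal left out, and mt-Nd1 and mt-Nd2 passed in every setting (adjusted p up to 0.0208 and 0.0329). mt-Nd6 did not pass without the filter on low counts (adjusted p = 0.0864). mt-Nd5 passed with limma-voom, DESeq2, upper-quartile factors, a stricter filter, the runs as a block or the mitochondrial rows out of the scaling (adjusted p = 0.0355 to 0.0493). Nuclear members lower numbered 1 in all 24 animals, 2 with DESeq2, 0 without the filter, 0 when the 4 libraries low in Ttr were left out, and 0 (without Ethanol X4765) to 19 (without Ethanol X4673) with 1 animal left out, 2 being left without Ethanol X4760. Without the filter Ndufs1 had an adjusted p of 0.101. All genes lower numbered 662 without the filter and 612 without the 4 libraries low in Ttr, and 805 to 1438 with 1 animal left out. The cause was not tested, except that the last 2 settings hold more genes or fewer animals by construction. The median over nuclear members ran from -0.05 to -0.0046 with 1 animal left out. Changes of a few percent are near what 12 animals a group can show, and age, sex and litter could not be taken into account. The groups share no replicate number, so animals were not paired singly; the block of runs left 1 nuclear and 4 mitochondrially encoded members lower, mt-Nd5 being the call it added among members.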
